A study of Mus musculus with 6 samples.

Results

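The interferon response and RNA sensing genes are 33 mouse genes that encode sensors of double-stranded RNA, the factors that carry the interferon signal to the nucleus, and the antiviral proteins that this signal switches on. All array probes carrying the name of 1 of these genes were taken, which gave 41 of the 55681 probes on the array, with 8 genes on more than 1 probe. The probes were taken by gene name alone, as a check on an innate response set off by the siRNA itself. G1E-ER-GATA-1 cells are a single mouse erythroid precursor line that lacks endogenous GATA-1, the main erythroid transcription factor, and makes an ER-GATA-1 fusion protein that becomes active when estradiol is added. The 3 Foxo3 siRNA samples received siRNA against the transcription factor Foxo3, and the 3 nontargeting siRNA samples received an siRNA with no intended target. Both groups were electroporated with their siRNA at 0 h and again at 24 h, were given estradiol for the last 24 h, and gave total RNA at 48 h. All 6 samples therefore held siRNA, had been electroporated and had active GATA-1. Cells given no siRNA were not analysed here, so a comparison of the groups measures how the siRNAs differed, and a response common to both siRNAs does not enter it.

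In most cells RNA sensors such as RIG-I (gene Ddx58) and MDA5 (Ifih1) recognise double-stranded RNA in the cytoplasm, and Tlr3 does so in endosomes. Their signal induces interferons, and interferons act through a complex containing Stat2 and Irf9 that binds the interferon-stimulated response element (ISRE) in the promoters of antiviral genes. Ifit1, Ifit3, Mx1, Rsad2, Cxcl10, Isg15 and the Oas family are widely used readouts of this response, and synthetic short RNAs can set it off in some cell types.

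Several widely used readouts of an interferon response were below what the array could measure in both siRNA groups. Of the 33 genes 10 were not well above background on any of the 6 arrays, namely Cxcl10, Gbp3, Ifit1, Ifit3, Mx1, Oasl2, Rsad2, Rtp4, Tlr3 and Xaf1. Among the 18 member probes that could be tested, 0 were called higher and 2 were called lower with Foxo3 siRNA at an adjusted p under 0.05. Over all 27038 tested probes 25.3% were called, 12.3% higher and 13.0% lower, so the 2 lower calls stand close to the share of the whole array and the 0 higher calls below it. The called probes measured Oas3, at 0.553 of its nontargeting level and detected on all 6 arrays, and Mx2, with a fitted level of 0.271 of nontargeting. The Oas3 call was kept in 9 of 17 alternative fits and was lost with each array scaled to its median (limma adjusted p = 0.170). The Mx2 call was kept in 13 of 16. Mx2 was detected on 2 of 3 Foxo3 siRNA arrays and entered the test only through the nontargeting arrays, where it is higher, and its call was lost when undetected probes were tested too (limma adjusted p = 0.0963). The interferon-inducible GTPase genes Igtp and Irgm1 had higher values on every Foxo3 siRNA array than on any nontargeting array, with folds of 1.33 for Igtp and 1.27 and 1.26 for the probes of Irgm1, and did not pass the adjusted threshold. Of all tested probes 21.8% likewise had every Foxo3 siRNA value above every nontargeting value.

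The promoters of many of these genes hold the ISRE core, in detected as well as in undetected genes. The ISRE core was searched on both strands as GAAA followed, after any 2 bases, by GAAA, from 250 bases before to 50 bases after each RefSeq gene start (build GRCm38.p6). It was found in 16 of the 25 member genes with an entry in that table (64%), against 3.99% of all 27025 genes in the table and 3.44% of its 32851 promoters. The core was present in 9 of 12 tested genes, in 2 of 5 genes detected on some arrays but not tested, and in 5 of 8 genes detected on no array. Stretches of 60 bases from 7 of these promoters are printed on the strand of the gene, with the ISRE core in capitals. It reads TTTC, any 2 bases, TTTC where it lies on the other strand. Isg15, at chr4:156200849-156200908 on the minus strand, holds 3 overlapping matches. Ifit1, at chr19:34640769-34640828 on the plus strand, and Ifit3, at chr19:34583359-34583418 on the plus strand, are shown because both carry the core and neither was detected. Oas3, at chr5:120777700-120777759 on the minus strand, is the called gene with a promoter entry. Irgm1, at chr11:48871421-48871480 on the minus strand, Igtp, at chr11:58199496-58199555 on the plus strand, and Bst2, at chr8:71537563-71537622 on the minus strand, are genes whose groups did not overlap.
Isg15: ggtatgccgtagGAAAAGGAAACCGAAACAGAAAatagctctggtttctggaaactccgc
Ifit1: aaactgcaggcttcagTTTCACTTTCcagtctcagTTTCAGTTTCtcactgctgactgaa
Ifit3: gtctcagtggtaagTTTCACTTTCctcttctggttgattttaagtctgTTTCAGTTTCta
Oas3: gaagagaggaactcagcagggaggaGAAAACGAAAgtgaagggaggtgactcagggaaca
Irgm1: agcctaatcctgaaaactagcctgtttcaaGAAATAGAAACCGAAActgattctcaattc
Igtp: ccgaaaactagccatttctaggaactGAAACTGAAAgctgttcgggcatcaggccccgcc
Bst2: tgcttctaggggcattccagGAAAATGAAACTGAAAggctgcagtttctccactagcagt

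The same window was searched for the GAS core TTCNNNGAA, the element of the interferon-gamma response, which was found in 6 of the 25 member genes (24%) against 9.55% of all genes and 8.30% of all promoters. These were Oas1a, Bst2, Igtp, Ifi35, Eif2ak2 and Ifit2. A forkhead core, GTAAACA, which Foxo factors can bind, was found in 2 of the 25 (Rsad2 and Gbp3) against 4.05% of all genes and 3.65% of all promoters. Neither Mx2 nor 7 other members had a promoter entry in the table.

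Detection was read from the scanner software's mark for a spot well above its background, and a probe was tested only if it carried that mark on all 3 arrays of at least 1 group. On Foxo3 siRNA replicates 1 to 3, 19, 25 and 14 of the 41 member probes were well above background, against 22, 20 and 21 on nontargeting replicates 1 to 3. Over all probes on the array the shares were 51.3%, 63.1% and 33.7% on the Foxo3 siRNA arrays and 56.2%, 52.9% and 53.9% on the nontargeting arrays. The members followed the arrays: on Foxo3 siRNA replicate 3, the array with the fewest probes above background, they were fewest too (34.1%). That array had a lowest signal of 24.1, against 3.48 to 4.29 on the other 5 arrays, and the software's surrogate value stood in for the signal of 50.2% of its spots, against 16.7% to 29.3% elsewhere.

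**Figure D1:**
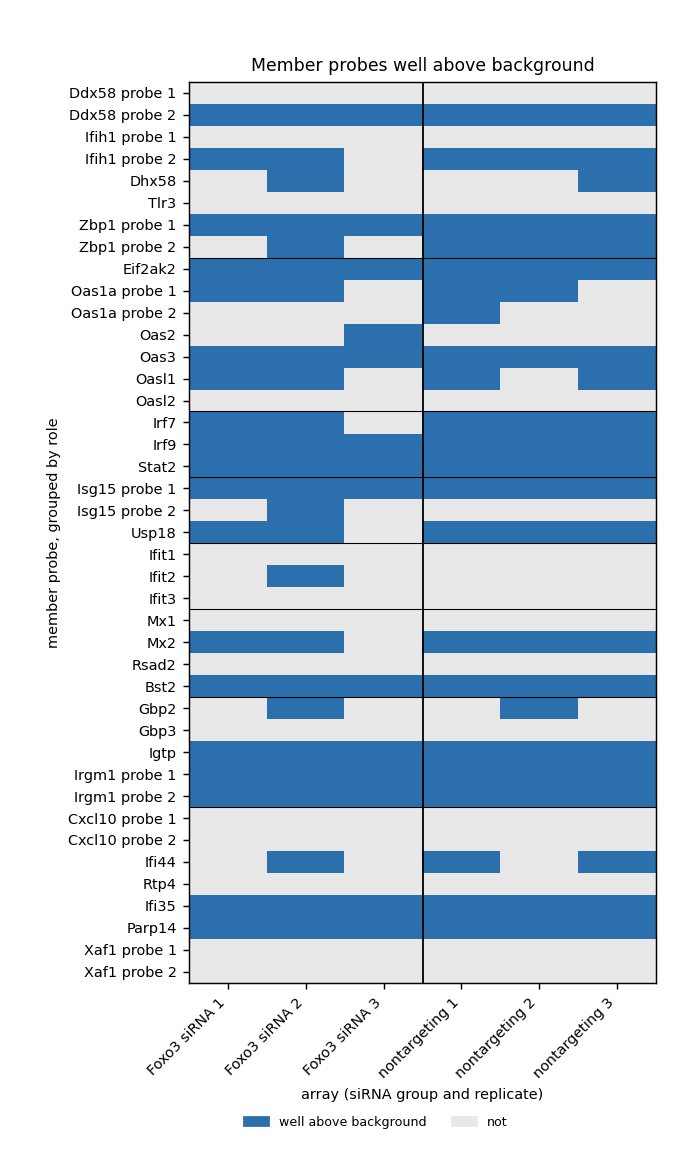
Detection of the 41 member probes (rows, grouped by role) on the 3 Foxo3 siRNA arrays and the 3 nontargeting arrays (columns), where a blue cell marks a probe well above background. Ifit1, Ifit3, Mx1, Rsad2, Tlr3 and both Cxcl10 probes are grey on all 6 arrays, and the Foxo3 siRNA replicate 3 column has 14 blue cells against 19 to 25 on the other arrays.

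By detection the members resembled the array as a whole. Of the 41 member probes 14 were above background on no array (34.1%, against 31.3% of all probes), 13 on all 6 arrays (31.7%, against 32.2%), and 18 were tested (43.9%, against 48.6%). These 18 probes measured 16 genes, and 7 genes were detected on some arrays without reaching the test. Of the tested probes 13 were above background on all 6 arrays. The other 5, for Ifih1, Irf7, Mx2, Usp18 and Zbp1 (probe 2), passed through their nontargeting arrays alone, so the filter favours lower Foxo3 siRNA values among them.

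The undetected members sat at the bottom of each array's range. Ifit1, which binds foreign RNA and restrains its translation, had processed signals of 3.9, 3.6 and 25.4 on Foxo3 siRNA replicates 1 to 3 and of 4.5, 4.3 and 4.3 on the nontargeting arrays. Mx1, an antiviral GTPase, had 4.0, 3.6 and 25.2 with Foxo3 siRNA, against 4.5, 4.3 and 4.2 with nontargeting siRNA. For both genes every value lay within a few units of its array's lowest signal, and the high value of Foxo3 siRNA replicate 3 lies next to that array's floor of 24.1. Rsad2, which encodes the antiviral enzyme viperin, had 4.6, 8.5 and 29.7 with Foxo3 siRNA, against 5.2, 5.0 and 5.1 with nontargeting siRNA. Probe 1 of the chemokine gene Cxcl10 had 3.9, 14.1 and 25.6 with Foxo3 siRNA, against 4.4, 4.3 and 4.3 with nontargeting siRNA, and probe 2 had 4.8, 4.6 and 32.1 against 5.2, 5.1 and 5.2. Tlr3 had 4.1, 3.9 and 26.6 with Foxo3 siRNA, against 4.6, 4.5 and 4.5 with nontargeting siRNA. No order between the groups can be read from signals at this level, and a level below what the array measures is not the same as none.

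**Figure D2:**
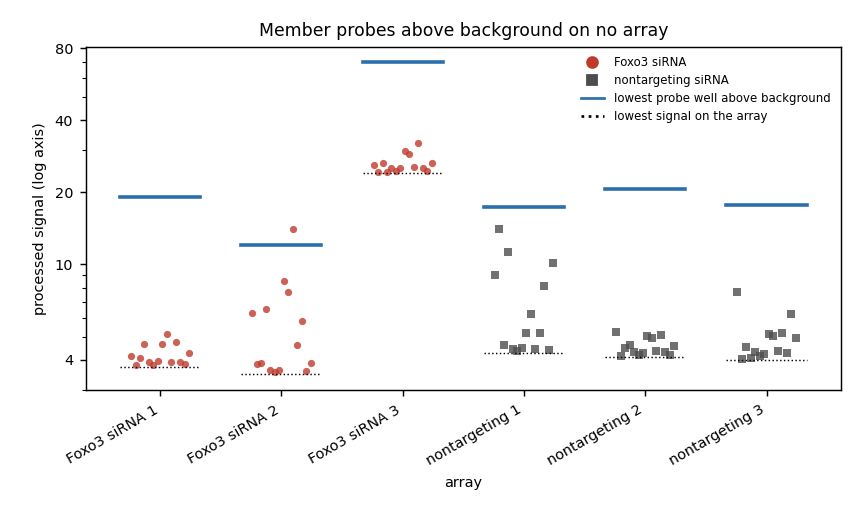
Processed signal (log axis) of the 14 member probes that were well above background on no array, for the 3 Foxo3 siRNA arrays and the 3 nontargeting arrays, with each array's lowest signal (dotted) and the lowest signal of any probe well above background (blue line). Most points lie close to the dotted line of their array, the floor of Foxo3 siRNA replicate 3 lies at 24.1, and 1 point (Cxcl10 probe 1 on Foxo3 siRNA replicate 2, 14.1) passes the blue line of its array without having carried the mark.

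Among the sensors, neither RIG-I nor MDA5 was called. Levels are given from here on as the log2 signal minus the 75th percentile of that array. Ddx58, the gene of RIG-I, was measured by probe 2 (chr4:40151893-40151952, minus strand, mm9) at −0.49, −0.58 and −0.43 on Foxo3 siRNA replicates 1 to 3 and at −0.51, −0.26 and −0.35 on nontargeting replicates 1 to 3. The groups overlapped, with a log2 fold change of −0.13 (95% interval −0.41 to 0.16, limma adjusted p = 0.428). Its probe 1 was above background on no array.

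MDA5 had lower values with Foxo3 siRNA without passing the threshold. Ifih1 probe 2 (chr2:62435507-62435566, minus strand) stood at −1.98, −1.83 and −2.77 with Foxo3 siRNA and at −1.56, −1.43 and −1.48 with nontargeting siRNA. All 3 Foxo3 siRNA values were below all nontargeting values, and the lowest came from replicate 3, where the probe was not well above background. The probe entered the test through the nontargeting arrays alone, and the filter favours lower Foxo3 siRNA values for such probes. Of all tested probes 27.8% had groups that did not overlap in the lower direction. The log2 fold change was −0.70 (SE 0.248, 95% interval −1.30 to −0.11, limma adjusted p = 0.0804), and −0.42 with that replicate left out (adjusted p = 0.0989). With normexp background correction the probe was called (−0.42, adjusted p = 0.0179). Ifih1 probe 1 was above background on no array.

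Zbp1, a sensor of nucleic acids in the Z form that can trigger cell death, gave different values on its probes. Probe 1 (chr2:173039307-173039366, minus strand) stood at −2.43, −2.55 and −1.35 with Foxo3 siRNA and at −1.99, −2.10 and −2.12 with nontargeting siRNA. Foxo3 siRNA replicate 3 was the highest of the 6 and replicates 1 and 2 were the lowest, so the groups overlapped (log2 fold change −0.04, SE 0.314, limma adjusted p = 0.920). Probe 2 (chr2:173032258-173032317, minus strand) stood at −5.27, −3.92 and −3.61 with Foxo3 siRNA, where only replicate 2 was above background, and at −2.70, −3.66 and −2.56 with nontargeting siRNA. Its log2 fold change was −1.29 (SE 0.489, limma adjusted p = 0.0945), with overlap between Foxo3 siRNA replicate 3 and nontargeting replicate 2. Probe 2 was called when the arrays were scaled to their medians (−0.99, adjusted p = 0.0206) and with the slide row as a block (−2.29, adjusted p = 0.0484). The slide row value rests on Foxo3 siRNA replicate 1, where the probe was not above background. The log2 fold change of probe 2 was −0.33 with normexp background correction (limma adjusted p = 0.329) and 0 with a common floor. Without Foxo3 siRNA replicate 1 it was −0.79 (adjusted p = 0.160).

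Dhx58, which encodes the helicase LGP2 that modulates the other RIG-I-like sensors, was above background on 1 array of each group and was not tested. Its processed signals were 11.4, 27.5 and 25.5 with Foxo3 siRNA, against 17, 19.3 and 101.7 with nontargeting siRNA. The single high value belonged to nontargeting replicate 3.

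Downstream of the sensors, the kinase PKR (gene Eif2ak2), which halts translation when it binds double-stranded RNA, did not separate the groups. Eif2ak2 stood at −0.84, −0.43 and −0.73 with Foxo3 siRNA and at −0.92, −0.60 and −0.68 with nontargeting siRNA. Its log2 fold change was 0.07 (SE 0.157, 95% interval −0.31 to 0.44, limma adjusted p = 0.749), so that a change of either sign up to about those bounds was within the error.

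Oas3 was the member of the Oas family that was detected on every array, and it fell. The Oas enzymes make short oligoadenylates in response to double-stranded RNA. The Oas3 probe (chr5:121203598-121203657, minus strand, mm9) starts with the following 30 bases.
Oas3 probe: actagacaccctaggaaccagacatctcta
Its processed signals were 244.7, 307.3 and 292.3 with Foxo3 siRNA, against 296.8, 473.7 and 424.4 with nontargeting siRNA. After scaling it stood at −0.50, −0.73 and −0.43 with Foxo3 siRNA and at −0.04, 0.48 and 0.47 with nontargeting siRNA. Every Foxo3 siRNA array was below every nontargeting array, with nontargeting replicate 1 the nearest to them. The log2 fold change was −0.86 (SE 0.180, 95% interval −1.29 to −0.42, limma adjusted p = 0.0189), which is 0.553 of the nontargeting level. The Oas3 call was lost with each array scaled to its median (−0.55, adjusted p = 0.170), without Foxo3 siRNA replicate 2 (adjusted p = 0.0616), without nontargeting replicate 2 (0.0808) and without nontargeting replicate 3 (0.0601). In a bulk sample, less RNA per cell and fewer cells carrying it cannot be told apart.

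The other Oas genes stayed near or under the detection limit. Oas1a probe 1 was above background on Foxo3 siRNA replicates 1 and 2 and on nontargeting replicates 1 and 2, with processed signals of 24.5, 57.4 and 29.0 with Foxo3 siRNA, against 33.6, 47.1 and 22.5 with nontargeting siRNA. Its probe 2 was above background on nontargeting replicate 1 alone (47.0, against 5.0 to 31.8 on the Foxo3 siRNA arrays). Oasl1, which in mice limits the production of Irf7 protein, had 24.7, 101.7 and 39.0 with Foxo3 siRNA, against 46.7, 17.9 and 148.1 with nontargeting siRNA. For Oas1a probe 1 and Oasl1 the groups overlapped, and each group held both a detected and an undetected array.

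Oas2 was the member with the most uneven values. Its processed signals were 7.4, 13.2 and 215.7 with Foxo3 siRNA, against 8.4, 4.8 and 4.9 with nontargeting siRNA. The value of 215.7 on Foxo3 siRNA replicate 3 was the only one well above background, on 1 spot of 1 array. With the nontargeting values raised to each array's lowest well-above-background level, the Foxo3 siRNA mean of Oas2 was 1.15 of the nontargeting mean. That ratio takes the undetected Foxo3 siRNA values as they are and rests on 1 detected array, so it is not a lower bound. It was not tested. The same ratio was 0.629 for Isg15 probe 2 and 0.540 for Ifit2, each also detected on 1 Foxo3 siRNA array alone. Oasl2, an Oas-like gene, was above background on no array.

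**Figure D3:**
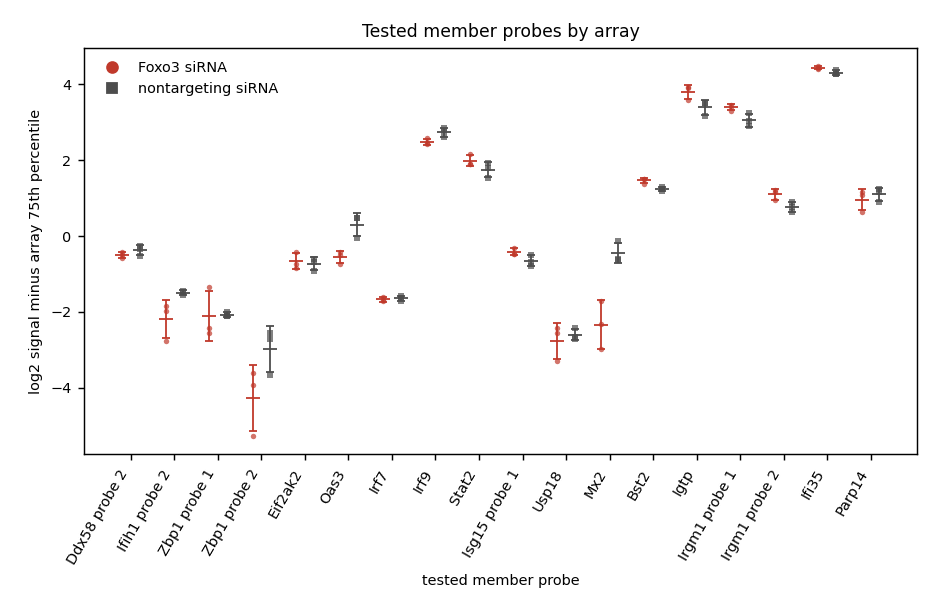
Scaled log2 level of the 18 tested member probes on each array, with the Foxo3 siRNA group (red circles) left of the nontargeting group (grey squares) and bars for the mean and SD (n = 3 arrays each). Mx2 and Oas3 lie lower in the red group, Igtp and both Irgm1 probes lie higher in it without overlap, and most other pairs sit side by side; levels of different probes are not comparable.

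None of the transcription factors of the response was called. Stat2 and Irf9 were detected on all 6 arrays, and Irf7 on 2 of 3 Foxo3 siRNA arrays and all 3 nontargeting arrays. Stat2, a subunit of the complex that binds the ISRE, stood at 1.89, 1.91 and 2.17 with Foxo3 siRNA and at 1.53, 1.78 and 1.93 with nontargeting siRNA, with a log2 fold change of 0.24 (SE 0.150, limma adjusted p = 0.249). Irf9, its DNA-binding partner, stood at 2.43, 2.45 and 2.57 with Foxo3 siRNA and at 2.61, 2.75 and 2.85 with nontargeting siRNA. The Irf9 groups did not overlap, and Foxo3 siRNA was the lower (log2 fold change −0.25, SE 0.117, limma adjusted p = 0.146), but the sign turned when arrays were scaled to their medians (0.05) or to the spike-in controls (0.12). Irf7, the factor that amplifies interferon production and is itself strongly induced by interferon, stood at −1.68, −1.60 and −1.72 with Foxo3 siRNA and at −1.71, −1.57 and −1.64 with nontargeting siRNA. These 6 values lay within a narrow band with the groups mixed, and the log2 fold change was −0.03 (SE 0.106, 95% interval −0.28 to 0.23, limma adjusted p = 0.852).

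Isg15, a ubiquitin-like protein that is joined to other proteins during the response, had no called change. Isg15 probe 1 (chr4:155573649-155573708, minus strand) stood at −0.47, −0.31 and −0.46 with Foxo3 siRNA and at −0.49, −0.68 and −0.78 with nontargeting siRNA. The Foxo3 siRNA values were all above the nontargeting values, narrowly so for replicate 1 of each group (log2 fold change 0.24, SE 0.124, 95% interval −0.06 to 0.53, limma adjusted p = 0.189). Its probe 2 was above background on Foxo3 siRNA replicate 2 alone. Usp18, the protease that removes ISG15 from proteins and dampens interferon receptor signalling, stood at −2.55, −2.43 and −3.30 with Foxo3 siRNA and at −2.65, −2.43 and −2.72 with nontargeting siRNA. The groups overlapped (log2 fold change −0.16, SE 0.242, limma adjusted p = 0.615), and its lowest value again came from Foxo3 siRNA replicate 3, where it was not above background.

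Of the IFIT genes only Ifit2 was ever above background, on Foxo3 siRNA replicate 2. Its processed signals were 4.1, 20.6 and 25.9 with Foxo3 siRNA, against 7.2, 5.9 and 12.8 with nontargeting siRNA. The promoter stretches of Ifit1 and Ifit3 printed above each carry 2 ISRE cores.

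Mx2 had the log2 fold change of largest size among the 18 tested member probes. Mx2 is the relative of Mx1 that lies in the cytoplasm in mice, an interferon-induced GTPase. Its probe (chr16:97782327-97782386, plus strand, mm9) starts with the following 30 bases.
Mx2 probe: aagagaaagaggctctcaaagctcagcaag
The processed signals were 106.3, 102.6 and 49.7 with Foxo3 siRNA, against 277.3, 221.8 and 202.1 with nontargeting siRNA. After scaling the gene stood at −1.70, −2.31 and −2.99 with Foxo3 siRNA and at −0.14, −0.62 and −0.60 with nontargeting siRNA. All Foxo3 siRNA values lay below all nontargeting values, and the lowest was on replicate 3, where the probe was not well above background. The Mx2 probe entered the test through the nontargeting arrays alone, so the filter favours a lower Foxo3 siRNA value. The log2 fold change was −1.88 (SE 0.328, 95% interval −2.67 to −1.09, limma adjusted p = 0.0103), or 3.69-fold lower with Foxo3 siRNA. Without Foxo3 siRNA replicate 3 it was −1.56 (adjusted p = 0.0202). The 4 arrays in row 1 of the slide, which hold all nontargeting samples and Foxo3 siRNA replicate 1, gave −1.25 (adjusted p = 0.0924), and that value rests on 1 Foxo3 siRNA array.

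Bst2, or tetherin, which holds budding viruses on the cell surface, stood at 1.51, 1.37 and 1.51 with Foxo3 siRNA and at 1.24, 1.30 and 1.20 with nontargeting siRNA. Its Foxo3 siRNA values were all above the nontargeting values, with a small log2 fold change of 0.22 (SE 0.107, limma adjusted p = 0.162).

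The immunity-related GTPases Igtp and Irgm1, which interferon-gamma induces in mice and which act at membranes around intracellular microbes, had the largest positive log2 fold changes among the tested members. Igtp (chr11:58020927-58020986, plus strand, 10 spots on each array) stood at 3.58, 3.90 and 3.92 with Foxo3 siRNA and at 3.15, 3.51 and 3.50 with nontargeting siRNA. Replicate 1 was the lowest of its group in both groups, and the groups did not overlap. The log2 fold change was 0.41 (SE 0.158, 95% interval 0.03 to 0.79, limma adjusted p = 0.0982). Irgm1 probe 1 (chr11:48679069-48679128, minus strand) stood at 3.30, 3.46 and 3.41 with Foxo3 siRNA and at 2.89, 3.23 and 3.02 with nontargeting siRNA, a log2 fold change of 0.34 (SE 0.129, limma adjusted p = 0.0936). Irgm1 probe 2 (chr11:48679632-48679691, minus strand) stood at 0.94, 1.15 and 1.21 with Foxo3 siRNA and at 0.77, 0.89 and 0.64 with nontargeting siRNA, a log2 fold change of 0.33 (SE 0.130, limma adjusted p = 0.102). The Irgm1 probes thus gave close fold changes in the same direction, though they share the gene and the samples. In the row 1 arrays alone the values were 0.20 for Igtp and 0.26 and 0.17 for the Irgm1 probes, the smallest adjusted p being 0.506, again with 1 Foxo3 siRNA array.

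The guanylate-binding protein genes were at the detection limit. Gbp2 had processed signals of 19.2, 47.4 and 28.9 with Foxo3 siRNA, against 22.5, 32.7 and 16.7 with nontargeting siRNA, and was above background on replicate 2 of each group. Gbp3 was above background on no array.

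Among the remaining interferon-stimulated genes, none was called. Ifi35, a regulator of innate signalling, stood at 4.44, 4.40 and 4.47 with Foxo3 siRNA and at 4.26, 4.38 and 4.26 with nontargeting siRNA. All Foxo3 siRNA values were higher, and the log2 fold change was 0.14 (SE 0.104, limma adjusted p = 0.333). Parp14, a mono-ADP-ribosyltransferase, stood at 0.64, 1.15 and 1.09 with Foxo3 siRNA and at 0.91, 1.15 and 1.24 with nontargeting siRNA, with overlap (log2 fold change −0.14, SE 0.178, limma adjusted p = 0.571). Ifi44 was above background on Foxo3 siRNA replicate 2 and on nontargeting replicates 1 and 3, with processed signals of 4.1, 29.9 and 25.7 with Foxo3 siRNA, against 52.4, 14.0 and 31.5 with nontargeting siRNA. Rtp4, a chaperone of receptors, and Xaf1, which opposes an inhibitor of apoptosis, were above background on no array.

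The 18 tested probes had 8 positive and 10 negative log2 fold changes. In 6 of them every Foxo3 siRNA value was higher (Bst2, Ifi35, Igtp, Isg15 and both Irgm1 probes), in 4 every Foxo3 siRNA value was lower (Ifih1, Irf9, Mx2 and Oas3), and in 8 the groups overlapped. Over all tested probes 49.6% had groups that did not overlap, 21.8% in the higher direction and 27.8% in the lower direction. At an unadjusted p under 0.05 the count was 7 of the 18 (38.9%), 3 higher and 4 lower, against 42.8% of all tested probes. The 4 lower probes were those of Ifih1, Mx2, Oas3 and Zbp1 (probe 2). All but Oas3 entered the test through the nontargeting arrays alone, so the filter favours lower Foxo3 siRNA values among them. The same limit holds for Ifih1 and Mx2 in the count of groups that did not overlap. The median log2 fold change of the tested members was −0.04, against −0.15 for all tested probes.

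The sign of small changes depended on how the arrays were put on a common scale. Scaling to each array's median moved the median of all probes to 0.15, and the member probes then had 14 positive and 4 negative log2 fold changes, with a median of 0.27. The 6 probes that turned positive were those of Ddx58, Irf7, Irf9, Parp14, Usp18 and Zbp1 (probe 1), all uncalled under both scalings. Mx2 was called lower under both scalings (−1.88 and −1.58), Oas3 was negative under both, and Igtp, Irgm1, Isg15, Bst2, Stat2, Ifi35 and Eif2ak2 were positive under both. Under median scaling Igtp reached 0.72 (adjusted p = 0.0576).

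**Figure D4:**
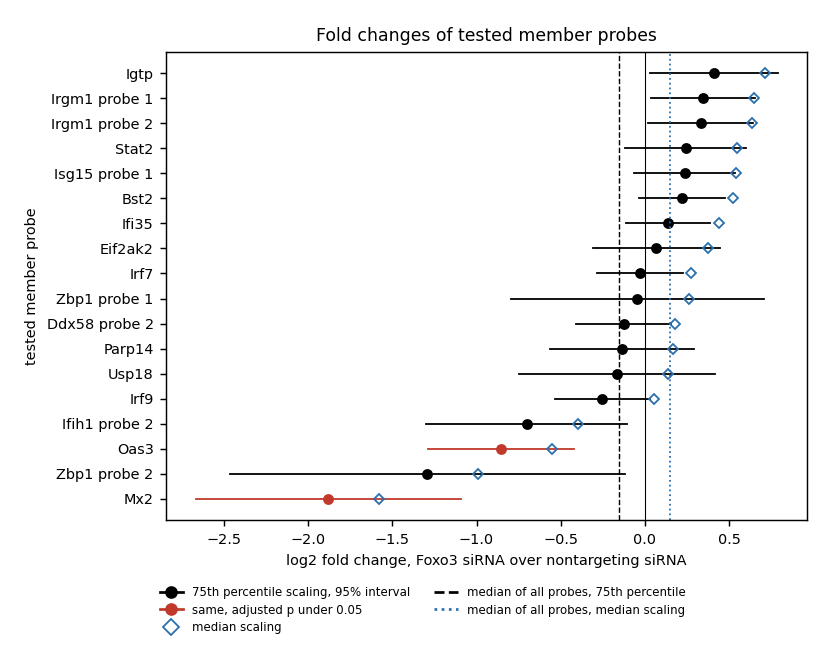
Log2 fold change, Foxo3 siRNA over nontargeting siRNA, of the 18 tested member probes with 95% intervals (filled circles, red where the adjusted p is under 0.05), beside the value with median scaling (open diamonds) and the median of all tested probes under each scaling (vertical lines at −0.15 and 0.15). Mx2 and Oas3 carry the red intervals, and median scaling moves all 18 probes to the right together.

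No member passed an adjusted p of 0.05 in the authors' deposited table, which held 50 member spots and gave 5 of them an unadjusted p under 0.05. Mx2 had the lowest adjusted p of any member in the authors' deposited table, with a log2 fold change of −1.63 and an adjusted p of 0.120. The authors' deposited table gave Oas3 a log2 fold change of −0.74 (adjusted p 0.128) and the 10 Igtp spots 0.36 to 0.45.

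The knockdown and the cells were checked on the same arrays. A Foxo3 probe at chr10:41905610-41905669 (minus strand) stood at −0.47, −1.29 and −1.89 with Foxo3 siRNA and at 1.20, 1.28 and 1.12 with nontargeting siRNA, a log2 fold change of −2.42, which left 18.7% of the nontargeting level (limma adjusted p = 0.0052). It was above background on 2 of 3 Foxo3 siRNA arrays and entered the test through the nontargeting arrays alone. Its call was lost when undetected probes were tested too (adjusted p = 0.0614), and row 1 of the slide alone gave −1.67 (adjusted p = 0.0326). Another Foxo3 probe, at chr10:41967288-41967347, did not fall (log2 fold change 0.26, adjusted p = 0.243). It stood at 1.25, 0.75 and 0.77 with Foxo3 siRNA, all above its 0.65, 0.63 and 0.70 with nontargeting siRNA. Of all tested probes 21.8% had groups apart in that direction. All 17 probes of 12 erythroblast marker genes were tested, with 2 called higher and 0 lower. Of the markers of other cells, 7 of 14 macrophage and dendritic cell genes were tested (0 probes higher, 2 lower), as were 4 of 10 lymphocyte genes (0 higher, 1 lower), 2 of 9 neutrophil and mast cell genes and 1 of 6 fibroblast genes (0 called). Over all tested probes 12.3% were called higher and 13.0% lower. The 2 lower macrophage and dendritic calls were both probes of Siglech, 1 of them above background on 2 of 3 Foxo3 siRNA arrays. The lymphocyte call was a Cd79a probe above background on 1 of 3 Foxo3 siRNA arrays. That Siglech probe and the Cd79a probe entered the test through the nontargeting arrays alone. Summed over probes on the linear scale, relative to each array's 75th percentile, the erythroblast markers ranged from 3491 to 4696 with Foxo3 siRNA and from 5047 to 5540 with nontargeting siRNA. This sum depends on the scaling, as the 75th percentiles were 346.6 to 509.0 with Foxo3 siRNA and 305.6 to 340.8 with nontargeting siRNA. Before scaling, the bright Hba-a1 probe had signals of 714039 to 773493 with Foxo3 siRNA, against 752797 to 792419 with nontargeting siRNA. Alas2 had 276607 to 327663, against 282575 to 321472. The macrophage and dendritic markers, summed in the same way, ranged from 277.0 to 352.6 with Foxo3 siRNA and from 405.6 to 428.9 with nontargeting siRNA. Most of the macrophage and dendritic sum came from 1 Siglech probe, at 8.43, 8.09 and 8.07 with Foxo3 siRNA and at 8.69, 8.63 and 8.64 with nontargeting siRNA, while 5 of the 14 genes, Lyz2, Itgax and Cx3cr1 among them, were above background on no array. Whether any macrophage or dendritic cells were present, and whether they bear on the lower values of Mx2 and Oas3, was not tested.

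Around the members, the wider pathway was surveyed with lists of genes by role. Of the interferon genes themselves, 15 were on the array and 10 of their 19 probes were tested, with 0 higher and 2 lower (Ifna13, −0.59, limma adjusted p = 0.0434, and Il28b, −0.48, adjusted p = 0.0471). The Ifna13 probe was above background on 2 of 3 Foxo3 siRNA arrays and entered the test through the nontargeting arrays alone, and the list had 0 lower calls in each of the 6 fits without 1 array, under median, quantile and spike-in scaling and without the filter. Receptors and the JAK-STAT pathway gave 3 higher and 3 lower of 25 tested probes. Ifngr1, a receptor chain for interferon-gamma, rose by 1.06 and the phosphatase gene Ptpn6 rose by 1.52. The kinase gene Jak1 fell by 0.90 and Irf2 fell by 0.60. Under median scaling this list had 4 higher and 0 lower calls, under spike-in scaling 2 and 0, and without the filter 1 and 0. Adaptors and enzymes below the sensors gave 4 higher and 8 lower of 33 probes, beside the 25.3% of all tested probes that were called. The 8 lower calls became 3 to 5 with an array left out and 4 under median scaling.

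Samhd1, an enzyme that depletes nucleotides and restricts viruses, fell by 1.40 and 1.51 on the log2 scale on the probes detected on all 6 arrays. A further Samhd1 probe was above background on 1 of 3 Foxo3 siRNA arrays and had a fitted value of −2.11. That probe entered the test through the nontargeting arrays alone, so the filter favours a lower Foxo3 siRNA value. The endosomal DNA sensor Tlr9 fell by 0.49, and Adar, which edits double-stranded RNA and keeps it from the sensors, rose by 0.66 on 1 probe (adjusted p = 0.0260) and had 0.15 on another (adjusted p = 0.304).

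Further interferon-stimulated genes outside the 33 moved in both directions, with 7 higher and 7 lower of 54 tested probes and a median log2 fold change of −0.20. The balance depended on the processing. Under median scaling 8 were higher and 2 lower, and under spike-in scaling 4 and 0. With normexp 8 were higher and 15 lower, and without the filter 2 and 0 of 94 probes. Ifitm2, an antiviral membrane protein, rose by 1.18 and the lectin gene Lgals9 rose by 1.27, while H2-D1, a class I histocompatibility gene, fell by 1.17. The Parp9 probes went in opposite directions, 1.62 on a probe above background on all 6 arrays and −0.82 on one above background on 2 of 3 Foxo3 siRNA arrays, which entered the test through the nontargeting arrays alone. Among the genes that handle small RNAs, 4 probes were higher and 2 lower of 15, with Drosha higher on both of its probes (0.60 and 0.62) and Dicer1 higher by 0.44. Eif2c2 was called in opposite directions on its probes (1.01 and −0.65), and Tnrc6b was called lower (−0.44). The higher count of this list was 0 to 4 with an array left out, and 4 only without Foxo3 siRNA replicate 1. Under median scaling the small RNA list had 4 higher and 0 lower calls, and under spike-in scaling 0 and 0. The genes of the NF-kappaB response, the other branch below the RNA sensors, gave 1 higher (Ier3, 1.66) and 2 lower (Il1b, −1.11, and Nfkb1, −0.72) of 15 tested probes. The Nfkb1 probe was above background on 2 of 3 Foxo3 siRNA arrays and also entered through the nontargeting arrays alone. Beside the 25.3% of all tested probes that were called, the 54 probes of the interferon-stimulated list had 14 calls, and these 15 NF-kappaB probes had 3. The 15 small RNA probes, with 4 higher and 2 lower calls, lay above that share.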

How the data were processed

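Total RNA of 6 samples was labelled with Cy3 and hybridised to 1-colour Agilent mouse arrays, all on 1 slide with 1 scan time. Per the file headers, the deposited spot intensity was made by Agilent Feature Extraction 10.7.3.1, with background subtraction and detrending within each array. The authors' deposited table gives a log2 fold change, a p-value and an adjusted p-value per spot, from limma per the submitters' processing notes. Its normalization is not given in the sources used here.

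From the intensity values, 3671 control spots were left out, outlier spots were set to missing, the log2 signal was centred on the 75th percentile of its array, and values from repeated spots of a probe were averaged. A probe was detected on an array when at least 50% of its spots were well above background. Kept probes (27038 of 55681) were compared between groups of 3 with limma 3.58.1 (R 4.3.3; lmFit and eBayes, two-sided, no covariates) and Benjamini-Hochberg adjustment over all of them, and called at an adjusted p under 0.05. The fit was tested on simulated data first. The ratio given for Oas2 sets the Foxo3 siRNA mean against nontargeting values raised to each array's lowest well-above-background level. All 33 members were accounted for; of each further list up to 4 genes with the smallest adjusted p were named. Some genes and a result that needs one are not reported here. The members and lists were chosen with earlier results of these data known. Nothing in the labels says that replicates came from separate cultures, so p-values measure the spread between these samples, which may be technical, and 3 arrays per group limit the precision.

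Probe positions come from the array design (mm9), per the file headers. Exon and UTR status was not analysed here. Promoter sequences are from RefSeq (GRCm38.p6); 25 of the 33 genes matched. The alternatives were other scalings (median, quantile, spike-in controls), normexp with an offset of 50, a common floor, 2 other filters, the brightest probe per gene, the replicate number or slide row as a block, row 1 of the slide alone, and leaving out each array. The replicate numbers were not treated as pairs: the deviations of same-numbered samples correlated at 0.16, −0.31 and 0.11.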

Additional observations from a re-analysis of the deposited data

How the results depend on the processing

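Of the calls among members, that of Mx2 was kept in 13 of 16 alternatives that could test it and that of Oas3 in 9 of 17. The log2 fold changes of Mx2 ran from −2.20 to −1.22 and those of Oas3 from −1.03 to −0.48, with no change of sign. Mx2 lost its call when dim probes were kept in (adjusted p = 0.0963), with the slide row as a block (0.0919) and in row 1 alone (0.0924). Oas3 lost it under median scaling, spike-in scaling (0.719), without the filter (0.152), with the slide row as a block (0.146), in row 1 alone (0.198) and in 3 of the 6 fits without 1 array. Called higher counts were 1 with a common floor (Bst2, adjusted p = 0.0453), 1 with the replicate block (Igtp, adjusted p = 0.0494) and 0 elsewhere. Called lower counts were 3 with normexp (Ifih1, Mx2 and Oas3), 1 with spike-in scaling, 1 with a filter on all 6 arrays, 1 with the slide row as a block (Zbp1 probe 2), 0 without the filter and 0 in row 1 alone, and 1 to 2 with an array left out; median scaling kept a count of 2 with Zbp1 probe 2 in place of Oas3. The cause was not tested.

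The median of the member probes was 0.27 under median scaling, 0.080 under quantile normalization, 0.34 under spike-in scaling, 0.068 without the filter and 0.14 with the filter on all 6 arrays, and −0.081 to 0.070 with an array left out. Its distance from the median of all probes, 0.12 in the report, was 0.20 under quantile normalization, 0.030 with the common floor, −0.014 without the filter, 0.023 with the slide row as a block, −0.050 in row 1 alone, and 0.011 to 0.24 with an array left out. Signs turned only in uncalled probes. Under median, quantile and spike-in scaling Zbp1 probe 1 had 0.26, 0.076 and 0.33, Irf7 0.28, 0.058 and 0.35, and Usp18 0.14, 0.083 and 0.21. Under median and spike-in scaling Ddx58 had 0.18 and 0.25, Irf9 0.052 and 0.12, and Parp14 0.17 and 0.24. Zbp1 probe 1 had 0.071 with normexp. With the slide row as a block and in row 1 alone Eif2ak2 had −0.11 and Usp18 0.044. With an array left out, values ran from −0.42 to 0.18 for Zbp1 probe 1, from −0.050 to 0.16 for Eif2ak2, from −0.064 to 0.0062 for Irf7, from −0.33 to 0.10 for Usp18 and from −0.23 to 0.026 for Parp14.

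Over all probes, 6834 calls (3318 higher, 3516 lower) became 5174 (4000 higher, 1174 lower) under median scaling, 1260 (1032 higher, 228 lower) under spike-in scaling, 634 (423 higher, 211 lower) without the filter, 8685 (3684 higher, 5001 lower) with normexp, 1854 with the slide row as a block, 777 in row 1 alone and 2684 to 5888 with an array left out. With an array left out, the other lists had higher and lower calls of 0 and 0 (interferon genes), 2 to 3 and 1 to 2 (receptors and JAK-STAT), 0 to 3 and 3 to 5 (adaptors), 4 to 6 and 3 to 8 (interferon-stimulated genes), 0 to 4 and 0 to 1 (small RNA genes), and 1 to 2 and 0 to 1 (NF-kappaB). Over all alternatives their counts lay between 0 and 15. Row 1 of the slide holds all nontargeting arrays and Foxo3 siRNA replicate 1, so within-row values rest on that 1 array. The depth of Foxo3 siRNA replicate 3, with a lowest well-above-background signal of 69.7 against 12.1 to 20.7 on the other arrays, limits what can be measured of dim members there.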
